A study of Homo sapiens with 6 samples.

Results

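Replication-dependent histone genes were taken as the genes whose symbols are H1-1 to H1-6, or begin with H2AC, H2BC, H3C or H4C and end in a number, which gave 66 of the 39282 genes in the deposited tables. The 66 were 6 linker histone H1 genes, 16 H2A genes, 17 H2B genes, 13 H3 genes and 14 H4 genes. RNA from 2 human ovarian tumour cell lines was sequenced as 6 libraries, 3 per line. PA-1 comes from a teratocarcinoma of the ovary, TOV21G from a clear cell carcinoma of the ovary. Each was infected with a lentivirus that carried a scramble hairpin (sh-Ctrl, here the control) or 1 of 2 short hairpins against the RNA-binding protein gene MEX3A (sh-MEX3A#1 and sh-MEX3A#2, here hairpin 1 and hairpin 2). All 6 libraries therefore come from infected cells, and each line has 1 control library. The spread behind the tests is that between the hairpins within a line, which are different reagents. It is shared over both lines in the main fit, so a test in either line also rests on the hairpins of the other. The labels do not state that libraries came from separate cultures, so p-values measure the spread between these libraries, which may be technical.

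Replication-dependent histone genes supply the histones that package newly made DNA, and they are transcribed mostly in S phase from gene clusters, under the coactivator NPAT. Most of their mRNAs end not in a poly(A) tail but in a conserved stem-loop, which the stem-loop binding protein SLBP binds and next to which the transcript is cut with the help of U7 snRNA. A minority of transcripts read on past the stem-loop to a downstream polyadenylation signal, and this form is known to be favoured in differentiated or arrested cells. Here mRNA was captured with oligo-dT beads before library construction. Poly(A) selection limits all values below: they describe the tailed transcripts and what other transcripts the beads carried along, not the full histone mRNA of the cells.

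The stem-loop is the end that poly(A) selection misses. It is shown for the 5 of the 8 most abundant members that hold it, and for H4C8, whose H4 form differs. It was searched on the sense strand of GENCODE release 29 transcripts as GG, 2 free bases, CTT, 1 free base, T, 1 free base, AG, 2 free bases and CC, in which the outer letters pair to form the stem. The free base before the last T was allowed after H3C6 had been seen. The capitals mark its 16 bases, with 5 bases on either side, written as DNA from 5′ to 3′.
H2BC4: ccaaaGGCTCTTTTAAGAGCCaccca
H2BC5: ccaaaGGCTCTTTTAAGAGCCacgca
H2BC21: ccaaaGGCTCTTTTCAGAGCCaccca
H2AC6: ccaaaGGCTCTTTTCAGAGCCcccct
H3C6: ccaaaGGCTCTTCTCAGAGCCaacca
H4C8: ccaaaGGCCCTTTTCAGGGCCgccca
On GRCh38 these lie, flanks included, at chr6:26123467-26123492 on the minus strand (H2BC4), chr6:26158582-26158607 on the plus strand (H2BC5), chr1:149886183-149886208 on the minus strand (H2BC21), chr6:26124664-26124689 on the plus strand (H2AC6), chr6:26225591-26225616 on the plus strand (H3C6) and chr6:26285126-26285151 on the minus strand (H4C8). The stem-loop was found in 28 of the 66 members (42.4%) and in 82 of 19611 other protein-coding genes (0.418%), while 94 of 19677 protein-coding genes (0.478%) held the same letters on the opposite strand. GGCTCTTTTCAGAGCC was the most frequent form, in 15 members. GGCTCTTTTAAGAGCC stood in H2BC4, H2BC5, H2BC7 and H3C8, and the forms with GGCC at both ends stood only in H4 genes, 7 of them. Among the 8 members with the highest mean level, 5 held it. The models of H1-2, H2BC12 and H4C3 did not, which says only that these letters are not in those transcripts as annotated, many of which end at the stop codon.

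The expected counts, RSEM's estimates of reads per gene, summed to between 14654628 and 19495162 per library. MEX3A (chr1:156072013-156082465, RefSeq on GRCh38.p14) was at 137 CPM (counts scaled to a fixed library total) in the PA-1 control and at 41.2 and 54.9 CPM with hairpins 1 and 2, and at 78.3, 40.1 and 33.1 CPM in the same order in TOV21G. The targeted mRNA was thus lower in all 4 hairpin libraries, with log2 changes of -1.51 (SE 0.28) and -1.10 (SE 0.29). SOX2, a pluripotency factor, was at 304 to 394 CPM in PA-1 and 1.81 to 2.79 CPM in TOV21G, and the clear cell marker PAX8 at 243 to 273 CPM in TOV21G and at most 0.189 CPM in PA-1. The leukocyte gene PTPRC did not exceed 0.134 CPM. The tissue label of all samples names the ovarian surface epithelium. The epithelial gene EPCAM did not exceed 0.102 CPM in PA-1, below the level of 3 counts, and was at 6.18 to 13.6 CPM in TOV21G.

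Of the 66 members, 25 reached an expected count of 10 in at least 1 library and are called detected here. By the same rule 17122 of all 39282 genes were detected. They were H1-2, H1-3, H1-4 and H1-6 among 6 linker histone genes, H2AC6, H2AC7, H2AC8, H2AC11, H2AC17 and H2AC20 among 16 H2A genes, H2BC4, H2BC5, H2BC8, H2BC9, H2BC11, H2BC12, H2BC15, H2BC18 and H2BC21 among 17 H2B genes, H3C4 and H3C6 among 13 H3 genes, and H4C3, H4C5, H4C8 and H4C15 among 14 H4 genes. H2B thus gave the most detected genes. In each library 10 to 20 members reached the minimum and 25 to 36 had a count of 0, and 16 members were at 0 in all 6 libraries. Just inside the minimum were H2AC17 and H2BC15, with a highest count of 11, and just outside it H2AC14, H2AC15 and H2BC7, with a highest count of 9. The 41 undetected members summed to only 23 to 53 counts per library. A count of 3 corresponds to 0.153 to 0.202 CPM, and levels below that were not detectable at this depth. Only 7 members reached the minimum in all 6 libraries. For 5 (H1-6, H2AC7, H2AC11, H2BC11 and H2BC15) it was reached only in TOV21G libraries with a hairpin, so these entered the set through the libraries where they are high. H2AC8 likewise reached it only in hairpin libraries, in both lines, with 9 counts in each control.

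The members together took 0.00646% of the counts in the PA-1 control and 0.00634% and 0.00999% with hairpins 1 and 2. In TOV21G they took 0.00805% in the control and 0.0198% and 0.0515% with the hairpins. Both hairpins thus stood above the control in TOV21G, while in PA-1 hairpin 1 stood just below it. On the CPM scale, with totals adjusted by edgeR's TMM factors, the PA-1 libraries (control, hairpin 1, hairpin 2) summed to 64.5, 60.7 and 99.0, which is 0.940 and 1.53 times the control. In TOV21G it was 82.1, 191 and 554 CPM, which is 2.33 and 6.74 times the control. The mean log2 change was 0.26 ± 0.50 (SD, n = 2 hairpins) in PA-1 and 1.99 ± 1.08 (SD, n = 2 hairpins) in TOV21G. A single gene, H2BC4, made up 64.3% of the members' counts in TOV21G with hairpin 2. Without it the TOV21G sums were 60.5, 134 and 198 CPM, a mean log2 change of 1.43 ± 0.40 (SD, n = 2 hairpins). No test was run on these sums.

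**Figure D1:**
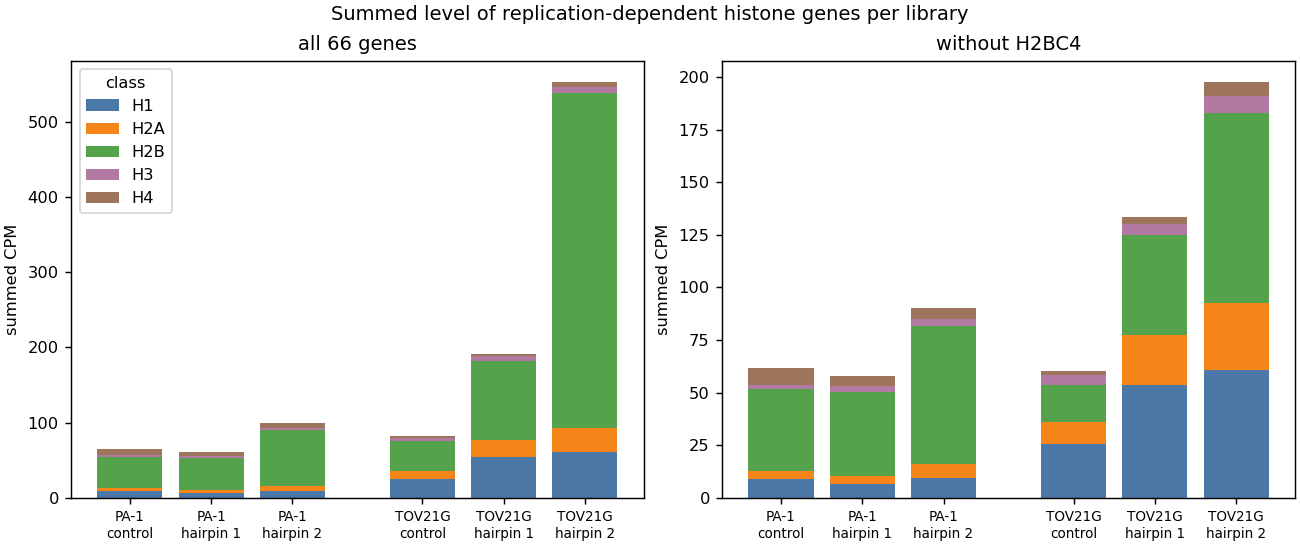
Summed CPM of the 66 replication-dependent histone genes in each library, stacked by histone class, for all genes (left) and without H2BC4 (right). The TOV21G library with hairpin 2 reaches 554 CPM, of which H2B genes make the largest share, and 198 CPM when H2BC4 is left out.

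By class, the TOV21G sums with hairpins 1 and 2 were 2.11 and 2.40 times the control for H1, 2.25 and 3.03 times for H2A, 2.67 and 11.3 times for H2B, 1.18 and 1.68 times for H3, and 1.59 and 3.30 times for H4. All 5 classes were above the control with both hairpins in that line. The same ratios in PA-1 were 0.761 and 1.09 for H1, 0.964 and 1.55 for H2A, 1.01 and 1.77 for H2B, 1.46 and 1.67 for H3, and 0.617 and 0.711 for H4. PA-1 hairpin 2 exceeded the control in 4 classes, hairpin 1 clearly only in H3, and H4 was lower with both. H2B was the largest class in every library, at 47.9% to 80.5% of the members' counts, and H1 came next in TOV21G, at up to 30.9%. The H3 and H4 genes, which encode the core tetramer, were sparse, at 29 to 120 counts for H3 and 32 to 125 counts for H4 per library.

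H2B proteins pair with H2A in the nucleosome. H2BC4 (chr6:26113170-26123926, RefSeq on GRCh38.p14 as for all genes below) had 47, 46 and 170 counts in the PA-1 control, hairpin 1 and hairpin 2, and 333, 874 and 5295 counts in the same order in TOV21G. These are 2.96, 2.79 and 8.65 CPM in PA-1 and 21.6, 57.6 and 356 CPM in TOV21G. In both lines hairpin 2 was the highest library, and hairpin 1 was above the control only in TOV21G. The fitted log2 change in TOV21G was 3.26 (SE 1.34), with an adjusted p of 0.535 by edgeR's quasi-likelihood test and 0.0294 by DESeq2. In PA-1 it was 0.96 (SE 1.29), with an adjusted p of 1 by edgeR. These SEs come from the fit of both lines. With each line fitted alone the changes were 0.96 (SE 0.72) in PA-1 and 3.26 (SE 1.07) in TOV21G. Without hairpin 2 the log2 change was -0.082 in PA-1. In TOV21G it was 4.04 without hairpin 1 (edgeR adjusted p = 0.0327) and 1.41 without hairpin 2 (edgeR adjusted p = 0.310). Each fit with a hairpin left out leaves 1 knockdown library in the line, which is assumed to vary as the hairpins of the other line do.

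H2BC21, an H2B gene of the chromosome 1 cluster (chr1:149884459-149886682), was at 4.53, 6.86 and 16.7 CPM in PA-1 and at 6.82, 25.3 and 64.8 CPM in TOV21G. In each line control, hairpin 1 and hairpin 2 stood in that order. The log2 change was 2.72 (SE 0.86) in TOV21G, with an adjusted p of 0.471 by edgeR and 0.0254 by DESeq2, and 1.38 (SE 0.82) in PA-1, with an adjusted p of 1 by both. With 1 hairpin left out and the same assumption, the TOV21G change was 3.25 without hairpin 1 (edgeR adjusted p = 0.0402) and 1.89 without hairpin 2 (edgeR adjusted p = 0.208). Over both lines the mean change was 2.05 (SE 0.59), with an adjusted p of 0.557 by edgeR and 0.0232 by DESeq2.

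H2BC5 (chr6:26158121-26171349) was at 5.22, 5.22 and 8.59 CPM in PA-1 and at 8.57, 19.8 and 17.1 CPM in TOV21G. Both TOV21G hairpin libraries lay above their control, and PA-1 hairpin 1 equalled its own at this precision. The log2 changes were 1.11 (SE 0.42; edgeR adjusted p = 0.515) in TOV21G and 0.40 (SE 0.42; edgeR adjusted p of 1) in PA-1. H2BC12 (chr6:27138293-27146858) had 367, 383 and 688 counts in PA-1 but only 3, 0 and 9 counts in TOV21G, too few for a comparison within TOV21G. In PA-1 it supplied 35.3% to 38.3% of all member counts and its log2 change was 0.33 (SE 0.79; edgeR adjusted p of 1). That SE comes from the fit of both lines, so it also draws on the few TOV21G counts. With PA-1 fitted alone the change was 0.34 (SE 0.29).

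**Figure D2:**
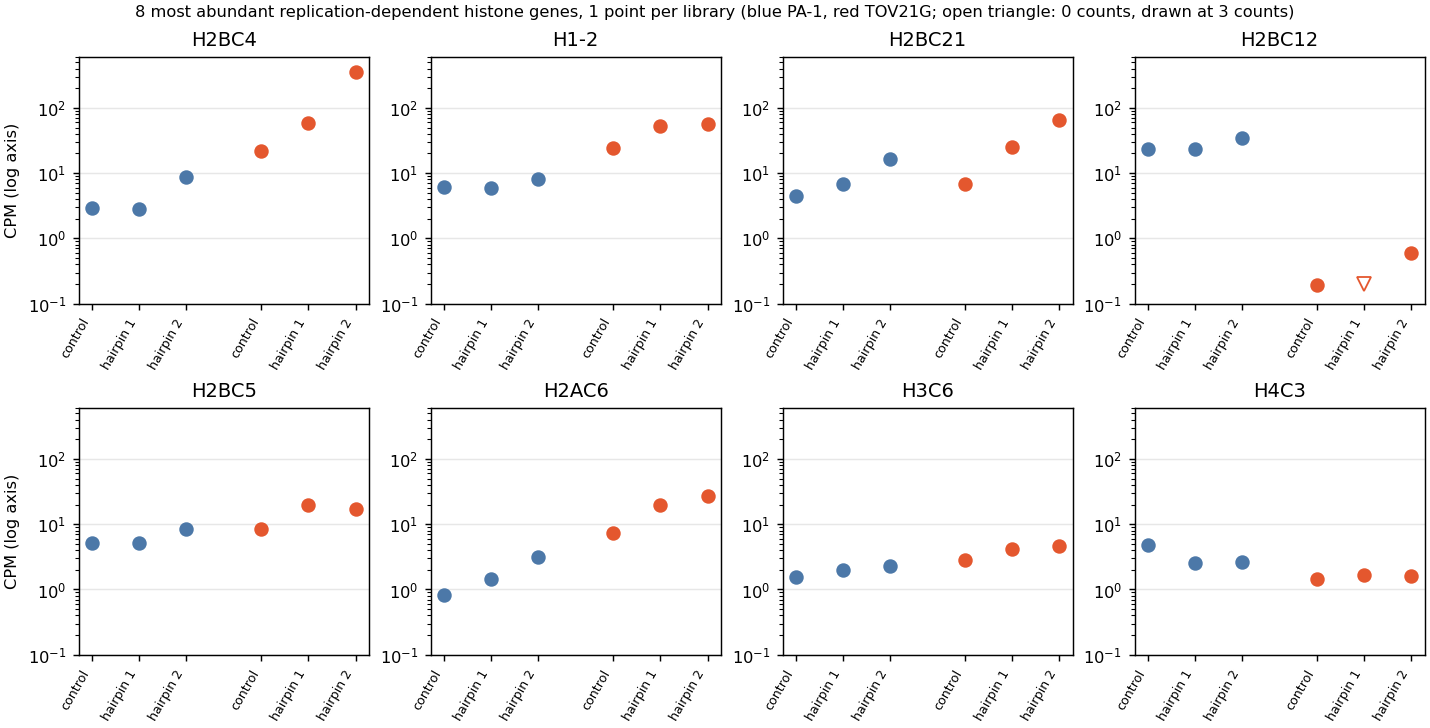
CPM on a log axis of the 8 replication-dependent histone genes with the highest mean, 1 point per library (blue PA-1, red TOV21G, an open triangle for a count of 0 drawn at the level of 3 counts). H2BC4 reaches 356 CPM in TOV21G with hairpin 2, and H2BC12 is above 20 CPM only in PA-1.

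Linker histone H1 binds the DNA between nucleosomes. H1-2 (chr6:26055740-26056470), the most abundant linker gene here, was at 6.23, 5.89 and 8.24 CPM in PA-1 and at 24.6, 52.9 and 57.2 CPM in TOV21G. The TOV21G hairpin libraries lay close together and at 2.15 and 2.32 times their control. The log2 change was 1.16 (SE 0.32) in TOV21G, with an adjusted p of 0.428 by edgeR and 0.190 by DESeq2, and 0.18 (SE 0.32; edgeR adjusted p of 1) in PA-1. Its TOV21G minus PA-1 difference in effect was 0.98 (SE 0.44), with an unadjusted p of 0.0762 by edgeR.

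H2AC6, an H2A gene (chr6:26124172-26124690), had 13, 24 and 61 counts in PA-1 and 111, 304 and 409 counts in TOV21G. This is 0.818, 1.46 and 3.10 CPM in PA-1 and 7.21, 20.04 and 27.5 CPM in TOV21G, with both hairpins above the control in either line. The log2 changes were 1.72 (SE 0.55; edgeR adjusted p = 0.472) in TOV21G and 1.48 (SE 0.64; edgeR adjusted p of 1) in PA-1. The H3 gene H3C6 (chr6:26224178-26227473) was at 1.57, 2.00 and 2.29 CPM in PA-1 and at 2.86, 4.22 and 4.70 CPM in TOV21G. In CPM it was again highest with the hairpins, with log2 changes of 0.45 (SE 0.47) and 0.64 (SE 0.46). In TPM (transcript abundance corrected for length) it went down in PA-1, at 3.95, 3.46 and 2.04. The mean lengths RSEM assigned to it there were 1142, 1607 and 2700 bases. In TOV21G it was at 2.26, 3.78 and 3.68 TPM. The H4 gene H4C3 (chr6:26103933-26104337) was lower with both hairpins in PA-1, at 4.78, 2.55 and 2.59 CPM (log2 change -0.89, SE 0.44). It stayed between 1.43 and 1.65 CPM in TOV21G (log2 change 0.19, SE 0.49). Neither gene passed edgeR's adjusted threshold in either line.

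Per length, in TPM (transcript abundance corrected for length) averaged over the 6 libraries, the order among the 8 members chosen by CPM was H2BC4 at 124, followed by H1-2 at 115, H2AC6 at 81.9, H2BC12 at 61.8, H2BC5 at 53.4, H4C3 at 38.8, H2BC21 at 21.6 and H3C6 at 3.20. Less counted but short members exceeded H3C6 on this scale, such as H2BC9 at 15.2 TPM and H4C8 at 10.9 TPM. The short H2AC6 and H4C3 models thus ranked higher per length than by CPM, and H2BC21, whose model is 2224 bases long, ranked lower. These means hide the lines: in the PA-1 control H2BC12 was at 102 TPM and H2BC4 at 7.07 TPM, and in the TOV21G control H1-2 led at 101.55 TPM against 30.6 TPM for H2BC4. The summed TPM of all members was 417, 365 and 484 in PA-1 and 311, 769 and 1372 in TOV21G.

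The other 17 detected members were low. They summed to 204, 136 and 219 counts in PA-1 and to 112, 119 and 330 counts in TOV21G, so only TOV21G hairpin 2 stood clearly above its line's control. Their median fitted log2 change was -0.31 in PA-1 and 1.14 in TOV21G. Of these 17, 5 reached the minimum only in TOV21G hairpin libraries, and H2AC8 only in hairpin libraries of both lines. This favours a higher TOV21G median, so that median is a description. H1-3, a linker gene, had 19 counts in the PA-1 control and 3 and 8 with the hairpins, and H4C8 had 2, 7 and 28 counts in TOV21G. H2AC20 was below its control in all 4 hairpin libraries, with 16, 7 and 8 counts in PA-1 and 11, 2 and 5 counts in TOV21G. H1-3 and H2AC20 reached the minimum only in control libraries, so lower values with the hairpins were favoured by how they entered the set.

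edgeR called no member at an adjusted p under 0.05 against the control in PA-1, in TOV21G, for the mean of both lines or for the difference between the lines. It also called none of the other genes (0.0% of 16855 tested in either direction for each of these 4 comparisons). At an unadjusted p under 0.05, 4 of the 25 (H1-2, H2AC6, H2BC21 and H2BC5) were higher in TOV21G against 4.15% of all genes, and none was lower against 5.41%. In PA-1 none was higher against 2.18% of all genes and none lower against 0.392%. For the mean of both lines 3 members (H1-2, H2AC6 and H2BC21) were higher against 4.47% and none was lower against 3.73%, and for the difference between the lines none was higher against 1.31% or lower against 2.50%. DESeq2 gave an adjusted p to 6 members in TOV21G and called 2 of them, H2BC4 and H2BC21, higher, against 0.786% of the genes it adjusted, and none lower against 1.10%. It called none of the 17 it adjusted in PA-1 (0.219% of genes higher and 0.0129% lower). For the mean of both lines it called H2BC21 higher among 8 (0.724% of genes) and none lower (0.279%). None of 13 differed between the lines (0.0412% higher and 0.0892% lower).

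Each hairpin was also set against the control of its line by subtracting log2 CPM values (prior count 2), without a test, and the differences of a line share that control. In TOV21G 15 of the 25 were higher with both hairpins (31.3% of all genes) and 2, H2AC17 and H2AC20, were lower (31.9% of all genes). At least 2-fold higher with both were 7 (4.26% of all genes), namely H1-2, H2AC6, H2BC4, H2BC11, H2BC21, H4C5 and H4C8, and none was 2-fold lower (3.36%). Of the members, 5 entered through the TOV21G hairpin libraries alone, among them H2BC11, and H2AC8 through hairpin libraries of both lines. These counts are therefore a description and not support for a shift. In PA-1, 7 were higher with both hairpins (33.8% of all genes) and 11 lower (34.0%). At least 2-fold, 1 was higher, H3C4 (3.36% of all genes), and 3 were lower, H1-3, H1-4 and H2AC20 (0.682%), each with 19 counts or fewer in every PA-1 library. H1-3 and H2AC20 reached the minimum only in control libraries, and H2AC8, higher with both, only in hairpin libraries. The PA-1 counts too are thus a description. The median fitted log2 change of the 25 was -0.20 in PA-1 and 1.14 in TOV21G, beside 0.00 and 0.02 over all 16855 genes. The median difference of the effects between the lines was 0.98, beside -0.01 over all genes. No member passed the test of that difference. The 5 members that entered through the TOV21G hairpin libraries alone favour a higher TOV21G median and a higher median difference. Both medians are thus a description.

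**Figure D3:**
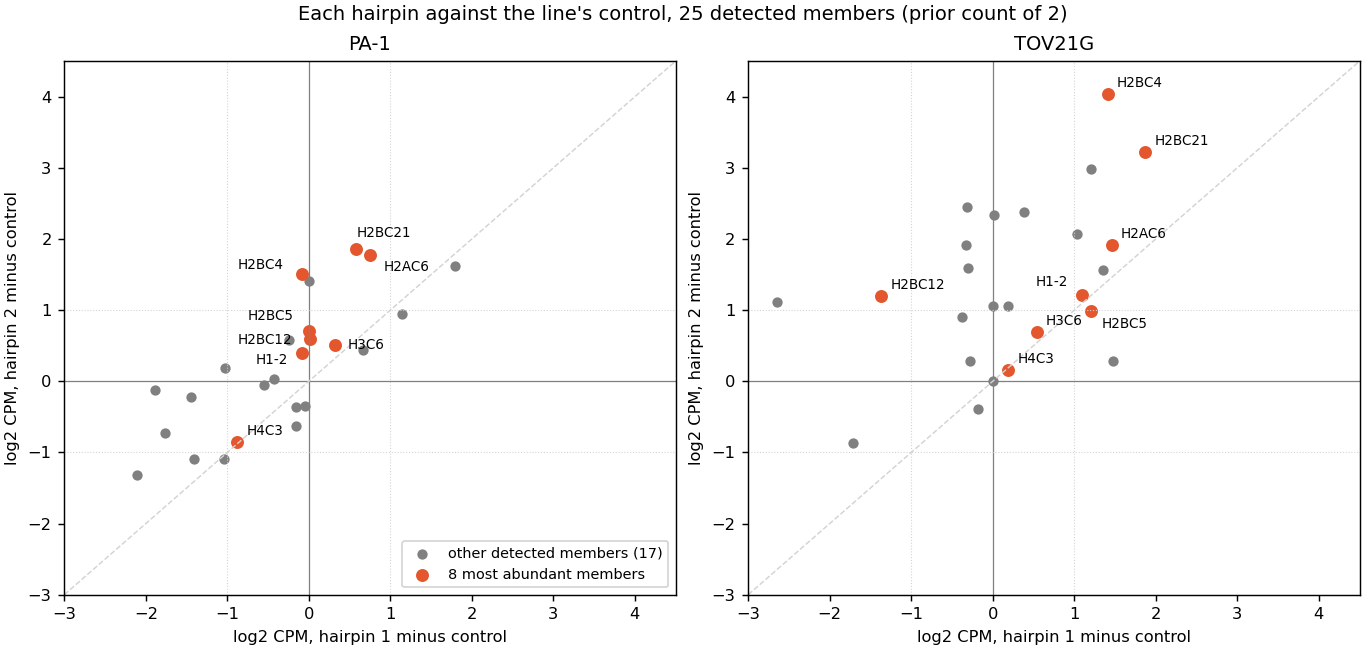
Log2 CPM with hairpin 1 minus control (horizontal) against hairpin 2 minus control (vertical) for the 25 detected members in PA-1 and TOV21G, with the 8 most abundant in orange and a dashed line of equality. In TOV21G 15 members lie above 0 on both axes and H2BC4 lies far above the line of equality, while in PA-1 7 lie above 0 on both axes and 11 below.

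The lines differed in which members they used. The mean TOV21G level minus the mean PA-1 level, over control and knockdown, was called by edgeR for 5 members that were higher in TOV21G (20.0% of all genes were) and for 3 that were lower (20.6% of all genes were), shares no larger than those over all genes. The 5 were H2BC4 (log2 difference 4.02, SE 0.96, adjusted p = 0.0261), H1-2 (2.47, SE 0.23, adjusted p = 0.00193), H2AC6 (3.25, SE 0.42, adjusted p = 0.00451), H2BC5 (1.06, SE 0.29, adjusted p = 0.0388) and H3C4, which had 0, 5 and 5 counts in PA-1 and 19.49, 14 and 35.87 in TOV21G. The 3 were H2BC12 (-6.70, SE 0.85, adjusted p = 0.00417), H4C3 (-1.20, SE 0.34, adjusted p = 0.0408) and H2BC9. H2BC9 had 46, 32 and 55 counts in PA-1, or 1.94 to 2.90 CPM, and 0 in all 3 TOV21G libraries, which allows at most 0.202 CPM. DESeq2 called the same 5 as higher (19.6% of all genes) and H2BC12 and H2BC9 as lower (20.6%), but not H4C3 (adjusted p = 0.124). Without PA-1 hairpin 1 or hairpin 2, edgeR's call was lost for H4C3 (adjusted p = 0.189 and 0.190) and for H2BC5 (adjusted p = 0.150 and 0.0684). In 6 members every TOV21G library exceeded every PA-1 library (29.4% of all genes) and in 4 every one was lower (30.8% of all genes). H2BC21 and H3C6 did not pass (edgeR adjusted p = 0.128 and 0.0687). Without TOV21G hairpin 1 both did (0.0212 and 0.0377), and other alternatives are given with the sensitivity of the results.

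**Figure D4:**
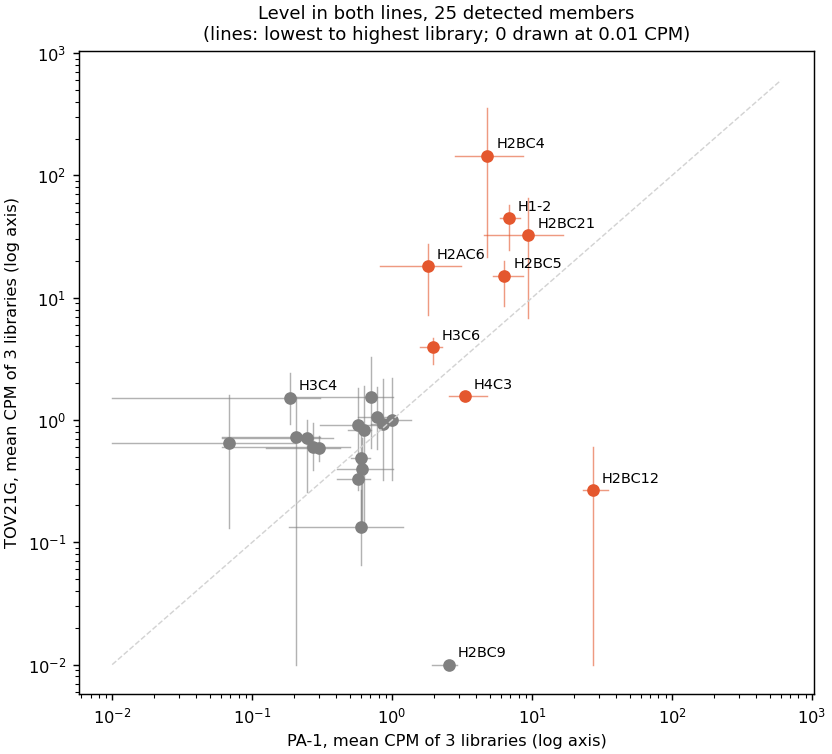
Mean CPM of the 25 detected members in PA-1 (horizontal) and TOV21G (vertical) on log axes, with lines from the lowest to the highest of 3 libraries and 0 drawn at 0.01 CPM. H2BC4, H1-2 and H2AC6 lie above the dashed line of equality, and H2BC12 and H2BC9 lie far below it.

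Many H2A and H2B genes lie head to head and share a promoter, and the members included 10 such pairs, with starts under 1000 bases apart, in RefSeq on GRCh38.p14. Both genes were detected in 4 pairs. The stretches between the starts of the pairs that hold H2BC4 and H2BC21 are printed on the plus strand, with matches on either strand in capitals. CCAAT reads ATTGG on the opposite strand. The TATA box TATAAA reads TTTATA there, and the octamer ATTTGCAT reads ATGCAAAT. The pair of H2BC4 (to the left, read leftwards) and H2AC6 spans chr6:26123927-26124171 and that of H2BC21 (to the left) and H2AC20 spans chr1:149886683-149886917.
H2BC4 and H2AC6: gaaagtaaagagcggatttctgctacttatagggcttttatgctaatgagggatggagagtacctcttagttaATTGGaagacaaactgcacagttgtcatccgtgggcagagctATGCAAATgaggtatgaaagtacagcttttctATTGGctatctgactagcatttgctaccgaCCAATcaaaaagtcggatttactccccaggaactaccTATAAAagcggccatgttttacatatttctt
H2BC21 and H2AC20: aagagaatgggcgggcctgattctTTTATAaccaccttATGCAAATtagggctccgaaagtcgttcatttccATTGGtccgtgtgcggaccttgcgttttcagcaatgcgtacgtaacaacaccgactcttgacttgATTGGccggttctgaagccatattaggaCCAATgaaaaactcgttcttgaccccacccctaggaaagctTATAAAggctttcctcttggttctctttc
Both stretches hold 3 CCAAT motifs and 1 octamer. H2BC4 and H2AC6 were both higher with both hairpins in TOV21G, whereas beside H2BC21, at 105, 384 and 965 counts in TOV21G, its partner H2AC20 had 11, 2 and 5 counts. In RefSeq windows from 250 bases before to 50 bases after the start, searched on both strands, CCAAT was found in 52 of 61 member promoters (85.2%) and in 35.7% of 27305 promoters, and TATAAA in 41 of 61 (67.2%) and in 11.95%. The octamer, known as the site that OCT1 binds in H2B promoters, was found in 26 of 61 (42.6%), in 14 of the 17 H2B promoters and in 1.80% of all promoters. A match is a description of the letters and not a binding site.

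The annotated ends of the members bear on what oligo-dT capture and read counting can see. A GENCODE transcript ran at least 100 bases past the stem-loop to an AATAAA near its end in 3 of the 8 most abundant members (H2AC6, H2BC21 and H3C6), in 5 of the other 17 detected and in 6 of the 41 undetected. This count rests on GENCODE models alone and may miss longer forms that RSEM counted. The longest GENCODE transcripts of H2BC4 and H2BC12 had 659 and 381 bases, less than the mean lengths RSEM assigned to them in every library. More than 1 transcript was listed by RSEM for 7 members. The mean transcript length RSEM assigned to H3C6 was 1142 and 1607 bases in the PA-1 control and hairpin 1 and 2700 bases in the other 4 libraries, and that of H2BC4 was between 1164 and 1624 bases with no common direction with the hairpins. Some histone genes are close copies of others: in 6 members every 100-base window also occurs in another gene, of which 5 were undetected, so their counts could be split or lost. The median share of such windows over the 66 members was 0.0%. None of the 8 most abundant was among the 9 with 90% or more of such windows. H3C4 and H2AC7 overlap each other and are the only members with counts that are not whole. All windows of H3C4 and 97.6% of those of H2AC7 occur in some other gene. The values of both, and the level difference called for H3C4, are therefore uncertain. So are those of the detected H4C15, for which RSEM listed 8 transcripts. It shares 94.9% of its windows with some other gene and overlaps H2AC19, H3C15 and H2BC20P. H2BC12 overlaps H4C9 and H2BC5 overlaps H2BC6-AS1 and LARP1P1 in the annotation. The kit marks strand but the strand setting of the counting is not given in the sources used here, so reads from overlapping genes on opposite strands may not be told apart.

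RNAs that bear on poly(A) capture and on the nucleus were set beside the summed histone level. Across the same libraries (PA-1 control, hairpin 1 and hairpin 2, then TOV21G in that order) a list of 23 noncoding RNAs without a poly(A) tail summed to 8.81, 10.98, 9.97, 9.81, 15.96 and 15.99 CPM. Of its 10 tested genes 6 were higher and 1 was lower with both hairpins in TOV21G, and 4 were higher and none lower in PA-1. The nuclear RNAs MALAT1 and NEAT1 summed to 1029, 1573, 1386, 4676, 10562 and 19523 CPM. Both sums were highest in the TOV21G hairpin libraries, as was the histone sum. Within TOV21G the non-polyadenylated sum was alike with both hairpins, and in PA-1 both sums were highest with hairpin 1, where the histone sum was lowest. Their part in the result was not tested. Variant histones, most of which come from polyadenylated mRNAs that are also made outside S phase (H2AX gives a stem-loop mRNA as well, and CENPA is made late in the cell cycle), summed to 2391, 2176, 2617, 1708, 1478 and 1523 CPM. In TOV21G their level with the hairpins was 0.865 and 0.891 times the control. Their ratio to the replication-dependent members went from 20.8 in the control to 7.72 and 2.75. H2BC4 alone made up 26.3%, 30.1% and 64.3% of the members' counts in these libraries, so the last ratio rests largely on that gene. Of 14 variant genes 12 were tested. For this and the lists below, 31.3% of all genes were higher and 31.9% lower with both hairpins in TOV21G, and 33.8% and 34.0% in PA-1. In TOV21G none was higher and 5 were lower with both hairpins, among them the centromeric H3 variant CENPA at 12.7, 6.0 and 6.38 CPM (log2 change -1.04, SE 0.28) and H2AZ1 at 225, 129 and 86.5 CPM (log2 change -1.06, SE 0.31). These were the only variants with an unadjusted edgeR p under 0.05 in TOV21G, and neither edgeR nor DESeq2 called a variant after adjustment. In PA-1 2 were higher and 3 lower with both hairpins.

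The genes of S phase and those that make, end and turn over histone mRNA were followed as lists. In TOV21G 24 of 25 S-phase genes were lower with both hairpins, 12 of them at least 2-fold, with a median log2 change of -1.19 beside 0.02 over all genes. edgeR called none at an adjusted p under 0.05, while its unadjusted p was under 0.05 for 16, and 8 were called lower by DESeq2. RRM2, the small subunit of ribonucleotide reductase, was at 218, 71.5 and 68.5 CPM (log2 change -1.64, SE 0.22, DESeq2 adjusted p = 0.000264), and the replication factor CDC45 at 19.0, 6.13 and 5.44 CPM (log2 change -1.71, SE 0.28, DESeq2 adjusted p = 0.0326). The S-phase genes and the histone members thus had medians of opposite sign in TOV21G. The histone median includes the 5 members detected only in TOV21G hairpin libraries, which favours a higher value. In PA-1 21 of the 25 lay below the control with both hairpins (median log2 change -0.26), none called by edgeR or DESeq2 and none with an unadjusted edgeR p under 0.05.

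Among 20 genes of histone gene transcription and 3′ end processing, 12 were lower and 5 higher with both hairpins in TOV21G (median log2 change -0.30), and 14 were lower and 2 higher in PA-1 (median -0.11). SLBP was at 66.5, 65.5 and 64.9 CPM in PA-1 and at 81.3, 49.6 and 40.6 CPM in TOV21G (log2 change -0.85, SE 0.25, edgeR unadjusted p = 0.0175 and adjusted p = 0.450). The S-phase regulator E2F1 was at 16.6, 6.0 and 5.04 CPM in TOV21G (log2 change -1.59, SE 0.27, adjusted p = 0.382 by edgeR and 0.0422 by DESeq2), and NPAT at 34.1, 40.4 and 30.1 CPM. E2F1 was the only gene of this list that DESeq2 called. Of 14 genes of histone mRNA decay, 9 were lower and 3 higher with both hairpins in TOV21G, with the exonuclease ERI1 at 68.0, 42.3 and 25.6 CPM and the decapping enzyme DCP2 at 167, 287 and 266 CPM, and 8 were lower and 3 higher in PA-1. Neither edgeR nor DESeq2 called any after adjustment, and edgeR's unadjusted p was under 0.05 in TOV21G for 1 higher and 2 lower genes. Of 14 genes of general cleavage and polyadenylation, 5 were lower and 2 higher in TOV21G and 13 lower and 1 higher in PA-1, with median log2 changes of -0.12 and -0.11 no calls by edgeR or DESeq2 and no unadjusted edgeR p under 0.05.

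Histone chaperones, which carry histones to DNA, were lower with both hairpins for 17 of 21 genes in TOV21G (median log2 change -0.64) and for 14 of 21 in PA-1 (median -0.18). edgeR called none in either line, with 7 and 1 at an unadjusted p under 0.05, all lower. DESeq2 called 3 in TOV21G, all lower, namely RBBP7 (247, 94.4 and 80.0 CPM, log2 change -1.505, SE 0.24), ASF1B (39.3, 15.0 and 12.4 CPM, log2 change -1.52, SE 0.26) and HJURP (37.8, 15.0 and 14.8 CPM, log2 change -1.35, SE 0.23). Of 7 p53 checkpoint genes, 4 were higher and 1 lower with both hairpins in TOV21G (median log2 change 0.42), and 3 were higher and 2 lower in PA-1 (median -0.0018). CDKN1A, which blocks entry into S phase, and MDM2 are both p53 targets. CDKN1A was at 18.9, 35.4 and 105 CPM in PA-1 and at 692, 1103 and 2168 CPM in TOV21G, and MDM2 at 164, 367 and 502 CPM and at 377, 1058 and 654 CPM. Both were above the control in all 4 hairpin libraries, and neither passed edgeR's adjusted threshold in either line (adjusted p of 1 in PA-1, 0.645 and 0.485 in TOV21G).

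**Figure D5:**
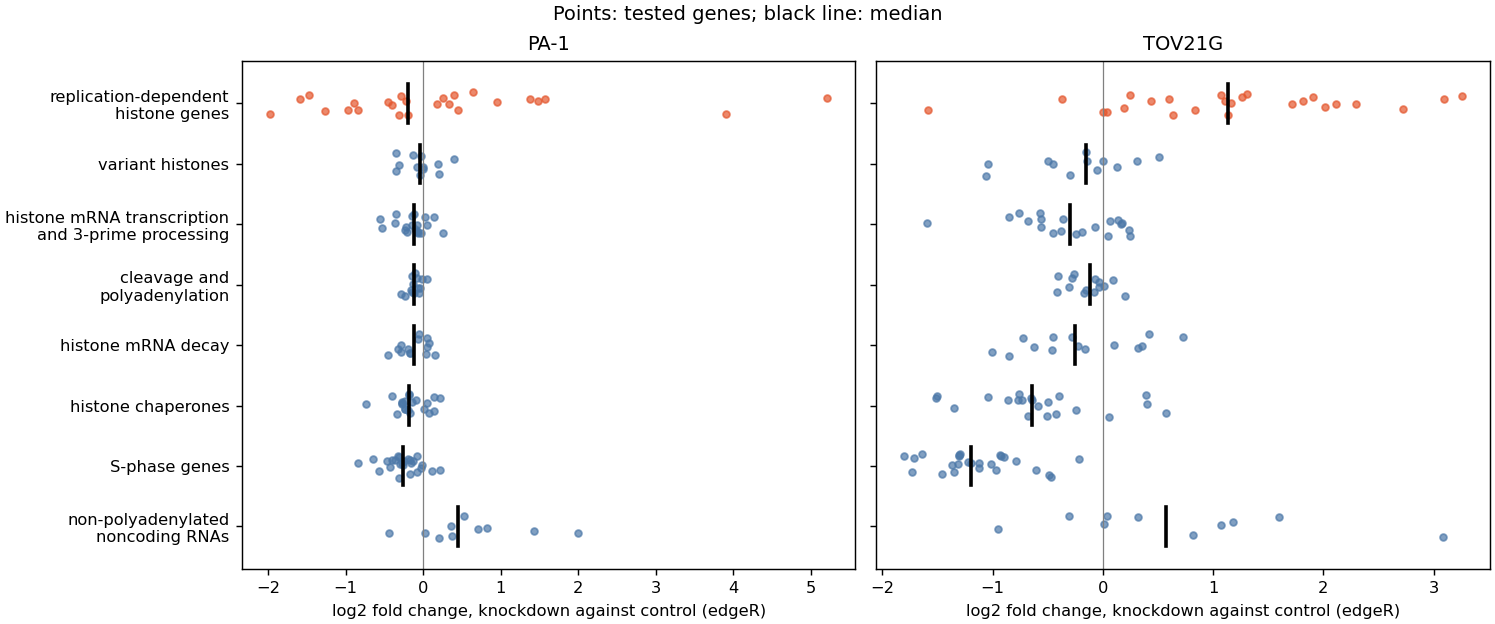
Fitted log2 fold change of knockdown against control (edgeR) in PA-1 and TOV21G for the 25 detected histone members (orange) and the tested genes of 7 lists (blue), 1 point per gene with the median as a black line. In TOV21G the histone median is 1.14 and the S-phase median -1.19, while in PA-1 they are -0.20 and -0.26. The histone genes include 5 that were detected only in TOV21G hairpin libraries.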

How the data were processed

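RNA was captured with oligo-dT beads, and libraries were made with a kit that marks strand by dUTP, per the labels' protocols. The submitters' processing notes name cutadapt 1.12, STAR 2.5.3a, RSEM 1.2.31, edgeR 3.26.8 and the hg38 build. The deposited values are, per the file headers, RSEM's expected count, TPM and FPKM of each gene in a library, as the authors made them. FPKM was read only to sum over the members. Expected counts were rounded and tested with edgeR 4.0.16 (R 4.3.3): TMM scaling, filterByExpr over 4 groups (16855 genes kept, with all 25 detected members), 1 mean per group, the quasi-likelihood F test and Benjamini-Hochberg adjustment over all genes kept. The SE is the size of the log2 change divided by the square root of F. DESeq2 1.42.0, other scalings and filters, single-line fits, left-out libraries and a replicate block were alternatives. Steps were tested on simulated data. Members given in full are the 8 with the highest mean CPM, and up to 4 genes per list were eligible by smallest p, beside MEX3A, MALAT1, NEAT1, CDKN1A and MDM2. SLBP, NPAT, H2AZ1, ERI1 and the marker genes shown are illustrations from their lists. The members and lists were chosen with earlier results of these data known. Stem-loops come from GENCODE 29 transcripts, matched for all 66 members, and promoters from RefSeq, matched for 61.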

Additional observations from a re-analysis of the deposited data

Results flagged for a closer look

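The summed level of the 14 H4 genes moved in opposite directions in the lines. It was 0.617 and 0.711 times the control with the hairpins in PA-1 and 1.59 and 3.30 times in TOV21G, a difference in mean log2 change of 1.79. The difference was not tested, and it rests on 32 to 125 counts per library, of which H4C3 gave 22 to 76. Different genes moved in the lines. H4C3 had 76, 42 and 51 counts in PA-1 (control, hairpin 1, hairpin 2) but 22, 25 and 24 in TOV21G. The TOV21G counts in that order were 2, 7 and 28 for H4C8, 5, 7 and 33 for H4C15, and 2, 6 and 14 for H4C5. Those of H4C15 are uncertain, since 94.9% of its 100-base windows also occur in another gene.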

How the results depend on the processing

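The number of members called in TOV21G, 0 by edgeR, was 2 by DESeq2, 2 with a replicate block and 0 to 2 when a library was left out. The 2 came without TOV21G hairpin 1. The mean over both lines, also 0, gave 1 by DESeq2 and 1 with the replicate block. RLE scaling, no filter, a mean of at least 1 CPM and a fit of either line alone gave 0 calls within the lines, and no alternative called a member in PA-1 or for the difference between the lines. The block is the hairpin, the same reagent in both lines (deviations of same-hairpin libraries correlated at r = 0.236 over 16855 genes, 2 pairs). With it edgeR called H2BC4 and H2BC21 in TOV21G (log2 changes 2.74 and 2.57, adjusted p = 0.0325 for each), H2BC21 for the mean (adjusted p = 0.0494) and H2BC21 for the level difference between the lines (adjusted p = 0.00209), and lost H4C3 there (adjusted p = 0.0520). The shares of all genes called with the replicate block or a library left out are not given here. Calls under these settings therefore cannot be read as particular to the histone members. The level difference between the lines was called for 8 members, and for 6 to 10 when a library was left out. The PA-1 summed level ranged from -0.089 (without hairpin 2) to 0.62 with a library left out, the PA-1 changes of H2BC4 and H1-2 from -0.082 to 1.55 and from -0.081 to 0.40. With TOV21G hairpin 2 or 1 left out, H2BC12 went from -4.75 to 1.60 in TOV21G, from -2.20 to 0.97 for the mean and from -5.08 to 1.26 for the difference between the lines, on 9 counts or fewer. The H2AC6 difference between the lines went from -0.20 (without PA-1 hairpin 1) to 0.89, and was -0.018 without TOV21G hairpin 2. Members at least 2-fold higher with both hairpins in PA-1 numbered 2 with a prior count of 0.5, 0 with one of 5 and 0 at a mean of at least 1 CPM. Those 2-fold lower numbered 1 with a prior count of 5 and 0 at a mean of at least 1 CPM. In TOV21G, 4 of 10 members were 2-fold higher at a mean of at least 1 CPM, and 1 was lower with a prior count of 0.5. Depth limits the 17 less abundant detected members, whose counts of a few reads set their fold changes.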
